A study of Mus musculus with 12 samples.

Results

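The genes described here, listed under the name of mucosal mast cells, are Mcpt1, Mcpt2, Hdc, Fcer1a, Tpsb2, Cpa3 and Kit. They were taken as every probe set that the array annotation assigns to exactly 1 of these symbols, which gave 10 probe sets for 7 genes among 22626 probe sets for 12393 genes. Male mice aged 6 to 8 weeks gave the RNA, from epithelial layer scraped off the ileum, the final stretch of small intestine. Wild-type C57BL/6 mice were compared with mice null for cytochrome P450 reductase (POR), the flavoprotein that passes electrons to microsomal P450 enzymes; the labels name C57BL/6 as the strain of both and do not say in which tissues POR was lost. All mice first ate a powdered diet without soya for 14 days, and then for 24 h either the same diet (control) or that diet with the plant flavonol quercetin (6.2 g/kg, stated as 7 mg for each mouse). This makes 4 groups of 3 Affymetrix 430A arrays (wild-type control, wild-type quercetin, POR-null control and POR-null quercetin), and each array held the pooled RNA of 3 mice.

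Mast cells are tissue-resident granulocytes that store proteases and histamine in granules and release them when IgE bound to their surface receptor meets antigen. In the mouse intestine the mucosal subset sits in and just below the epithelium and is known for the chymases encoded by Mcpt1 and Mcpt2, whereas mast cells of connective tissue carry other chymases and more tryptase. Their growth depends on the receptor tyrosine kinase Kit and its ligand, and intestinal mast cells multiply in worm infection and allergy.

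The promoters of 5 of the 7 genes were found in the RefSeq promoter table (build GRCm38.p6, windows of 300 bases from 250 before to 50 after the annotated start); Mcpt2 and Tpsb2 had no entry. GATA factors, among them the mast cell regulator GATA2, bind the core GATA, and the motif searched was GATAA on both strands (TTATC on the other). It was present in the windows of 3 genes, Mcpt1, Fcer1a and Cpa3, which are printed here 5′ to 3′ on the gene's strand with the motif in capitals, so that a granule protease, a receptor chain and a granule exopeptidase can be compared.
Mcpt1: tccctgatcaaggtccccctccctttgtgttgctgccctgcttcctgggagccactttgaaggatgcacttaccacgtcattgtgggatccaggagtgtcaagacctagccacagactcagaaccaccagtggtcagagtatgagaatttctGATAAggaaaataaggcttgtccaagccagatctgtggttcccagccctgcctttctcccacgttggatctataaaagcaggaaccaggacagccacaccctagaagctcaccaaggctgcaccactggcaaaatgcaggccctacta
Fcer1a: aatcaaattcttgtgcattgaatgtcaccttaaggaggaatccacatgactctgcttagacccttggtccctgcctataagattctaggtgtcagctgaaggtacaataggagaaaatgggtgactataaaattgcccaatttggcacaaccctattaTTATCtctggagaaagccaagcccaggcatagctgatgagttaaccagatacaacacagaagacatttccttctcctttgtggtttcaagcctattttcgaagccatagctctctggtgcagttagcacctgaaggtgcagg
Cpa3: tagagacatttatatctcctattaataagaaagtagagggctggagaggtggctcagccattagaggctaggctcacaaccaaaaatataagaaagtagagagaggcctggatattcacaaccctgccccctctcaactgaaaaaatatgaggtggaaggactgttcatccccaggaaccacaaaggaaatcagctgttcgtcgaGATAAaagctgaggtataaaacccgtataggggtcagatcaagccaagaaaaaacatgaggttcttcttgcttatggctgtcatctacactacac
The Mcpt1 window is chr14:56017714-56018013 on the plus strand, and its motif begins 98 bases before the start. For Fcer1a the window is chr1:173227180-173227479 on the minus strand, with the motif on the opposite strand to the gene, 92 bases before the start. The Cpa3 window is chr3:20242132-20242431 on the minus strand, with the motif 45 bases before the start. The letters GATAA or TTATC occur in 25.4% of all 32817 promoter windows of this length, so a match in 3 of 5 genes is only a description. The windows of Hdc and Kit did not hold GATAA or TTATC, while the shorter core GATA, which the Hdc window does hold, was not counted. A second motif, CACATG, one form of the E-box that the mast cell factor MITF can bind (CATGTG on the other strand), was in the window of Fcer1a only, against 14.2% of all windows. The motif TATAAA, the core promoter element that many inducible genes carry, was also searched on both strands. It lay 28 bases before the start of Mcpt1 and 31 before that of Cpa3, with further matches 125 bases before the start of Fcer1a and 242 before that of Cpa3, and occurs in 13.6% of all windows.

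Across the series, array medians lay between 5.91 and 5.96 log2 units, and arrays of a group correlated with r between 0.9917 and 0.9956 over all probe sets. Wild-type control replicate 2 stood apart on the first principal component (-25.57 against -10.80 to 10.56 in the other 11 arrays) and had the highest score of 4 proximal small intestine genes (0.50 against -0.35 to 0.20, mean of log2 levels after centring each gene). Of the probe sets with a single symbol, none was that of Por, and the genotype labels were not checked by the deleted gene. Since the arrays measure tissue RNA, fewer cells of a type and less RNA per cell cannot be told apart.

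The probe sets of the 7 genes gave low to middling signal, which bears on every value below. The mean over 12 arrays of the probe set used for each gene, the brightest one, lay at percentile 10.5 of all probe sets for Fcer1a, 37.3 for Mcpt1, 45.1 for Kit, 50.1 for Tpsb2, 54.1 for Hdc, 57.8 for Cpa3 and 61.5 for Mcpt2; signal also depends on the probe, so these do not rank the genes by RNA. The files hold no detection calls, so whether a gene was above background was not measured. The range from the lowest to the highest array was 1.05 for Mcpt1, 0.81 for Mcpt2, and 0.34 to 0.55 for the remaining 5 genes.

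Mcpt1 encodes the mucosal mast cell chymase, a serine protease released into the gut during worm expulsion. On the control diet wild-type arrays were at 5.24, 5.0 and 5.53 (log2 level, replicates 1 to 3) and POR-null arrays at 5.22, 4.97 and 5.29. On quercetin, wild-type arrays were at 5.36, 5.39 and 5.27 and POR-null arrays at 6.02, 5.65 and 5.18. POR-null quercetin replicates 1 and 2 were thus the highest of all 12 arrays, while replicate 3 of that group lay within the range of the others, so every pair of groups overlapped. The group means ran from 5.16 ± 0.17 in POR-null control through 5.26 ± 0.27 in wild-type control and 5.34 ± 0.06 in wild-type quercetin to 5.62 ± 0.42 in POR-null quercetin (SD, n = 3), and no neighbours in this order differed by more than the larger of their SDs.

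Mcpt2 encodes a second chymase-family protease of mucosal mast cells. Wild-type control arrays were at 6.36, 6.43 and 6.77, wild-type quercetin arrays at 6.70, 6.35 and 6.29, and POR-null control arrays at 6.33, 6.42 and 6.32. POR-null quercetin arrays were at 7.06, 6.76 and 6.25, so this group held both the highest and the lowest array of the series. Its mean of 6.69 ± 0.41 was the highest, followed by wild-type control (6.52 ± 0.22), wild-type quercetin (6.45 ± 0.22) and POR-null control (6.36 ± 0.06), with no step larger than the SDs. Mcpt1 and Mcpt2 are related protease genes, and whether their probe sets bind each other's transcript or those of Mcpt4 and Mcpt9 was not tested.

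**Figure D1:**
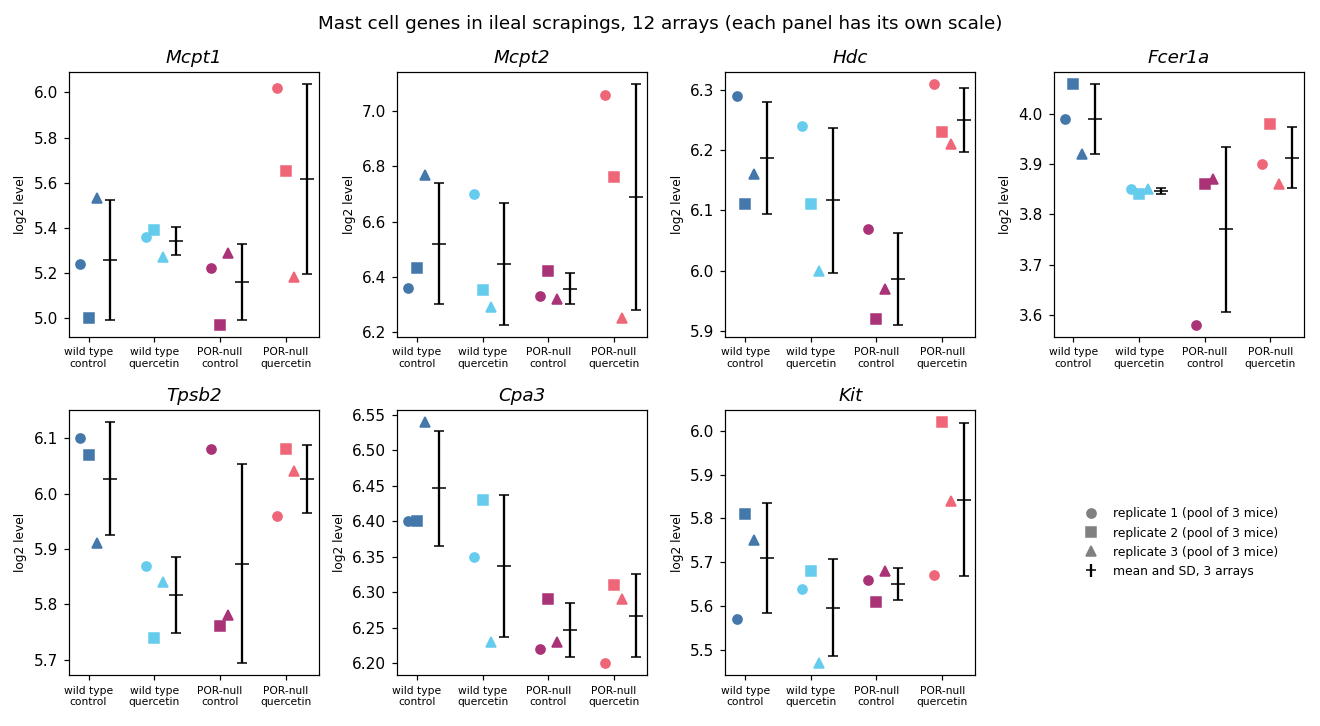
Log2 level of the brightest probe set of each of the 7 genes (vertical axis, a separate scale per gene) in the 4 groups, with 1 point per array and the mean and SD of 3 arrays in black. POR-null quercetin spans from 5.18 to 6.02 for Mcpt1, and its 3 Hdc values lie above the 3 of POR-null control.

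Mcpt1 and Mcpt2 varied together from array to array. Their correlation over the 12 arrays was 0.82 (Pearson) and 0.55 (Spearman), and 0.79 after group means were subtracted. Without POR-null quercetin replicates 1 and 2, the arrays farthest from the median of Mcpt1, Pearson's r was 0.47 and Spearman's rho 0.24, so much of the relation rests on those arrays.

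**Figure D2:**
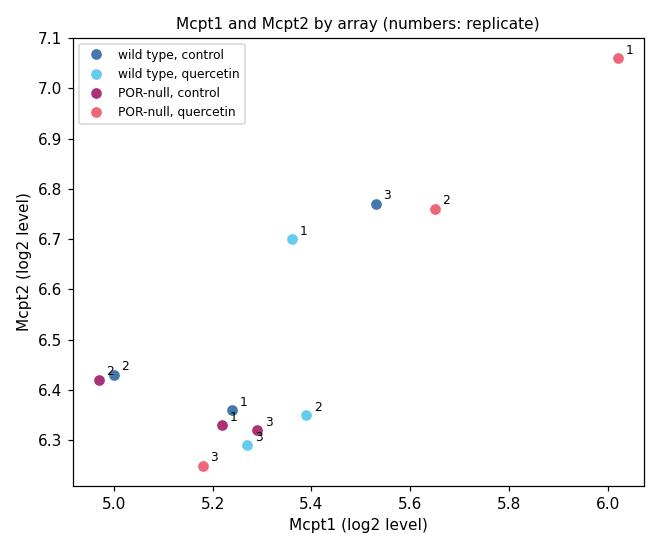
Log2 level of Mcpt2 (vertical) against Mcpt1 (horizontal) for the 12 arrays, coloured by group and numbered by replicate. POR-null quercetin replicate 1, at 6.02 and 7.06, is highest for both genes, and replicate 3 of the same group is lowest for Mcpt2.

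Hdc encodes histidine decarboxylase, which makes histamine in mast cells and also in some other cells of the gut wall. Its brighter probe set was at 6.29, 6.11 and 6.16 in wild-type control, 6.24, 6.11 and 6.00 in wild-type quercetin, 6.07, 5.92 and 5.97 in POR-null control and 6.31, 6.23 and 6.21 in POR-null quercetin. POR-null control was the lowest group, below all wild-type control arrays and all POR-null quercetin arrays. The means in ascending order were 5.99 ± 0.08, 6.12 ± 0.12 (wild-type quercetin), 6.19 ± 0.09 (wild-type control) and 6.25 ± 0.05 (POR-null quercetin), and only the lowest step exceeded the larger SD of its groups. The other Hdc probe set was dim (percentile 9.74), ranged from 3.73 to 3.91, and differed by -0.01 between diets in POR-null mice and by 0.00 between genotypes on control.

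Tpsb2 encodes a tryptase stored in granules, and Cpa3 encodes carboxypeptidase A3, which most mast cells carry. Neither gene is particular to the mucosal subset. Tpsb2 was at 6.10, 6.07 and 5.91 in wild-type control, 5.87, 5.74 and 5.84 in wild-type quercetin, 6.08, 5.76 and 5.78 in POR-null control and 5.96, 6.08 and 6.04 in POR-null quercetin. All wild-type quercetin arrays lay below all wild-type control and all POR-null quercetin arrays, while POR-null control replicate 1 lay about as high as the highest groups. Its second probe set (percentile 18.2) differed by 0.00 between the diets in wild type and by 0.02 between genotypes on quercetin, so it did not show this order.

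Cpa3 followed another order. It was at 6.40, 6.40 and 6.54 in wild-type control, 6.35, 6.43 and 6.23 in wild-type quercetin, 6.22, 6.29 and 6.23 in POR-null control and 6.20, 6.31 and 6.29 in POR-null quercetin. Both POR-null groups (6.25 ± 0.04 and 6.27 ± 0.06) lay below all wild-type control arrays (6.45 ± 0.08), with wild-type quercetin between them at 6.34 ± 0.10. It was the only one of the 7 genes that was not higher in POR-null than in wild type on quercetin.

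Fcer1a encodes the IgE-binding chain of the high-affinity IgE receptor, and Kit the receptor for stem cell factor. Fcer1a, the dimmest of the probe sets used, was at 3.99, 4.06 and 3.92 in wild-type control, 3.85, 3.84 and 3.85 in wild-type quercetin, 3.58, 3.86 and 3.87 in POR-null control and 3.90, 3.98 and 3.86 in POR-null quercetin. Wild-type control was the highest group and lay above all wild-type quercetin and all POR-null control arrays. The lowest array was POR-null control replicate 1, at 3.58.

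Kit was at 5.57, 5.81 and 5.75 in wild-type control, 5.64, 5.68 and 5.47 in wild-type quercetin, 5.66, 5.61 and 5.68 in POR-null control and 5.67, 6.02 and 5.84 in POR-null quercetin, and every pair of groups overlapped. Its means ran from 5.60 ± 0.11 (wild-type quercetin) through 5.65 ± 0.04 (POR-null control) and 5.71 ± 0.12 (wild-type control) to 5.84 ± 0.18 (POR-null quercetin), each step within the SDs. The second Kit probe set (percentile 31.6) differed by -0.01 between diets in POR-null mice and by 0.08 between genotypes on quercetin. Kit also marks interstitial cells of Cajal, the pacemaker cells of gut muscle. The channel gene Ano1 of those cells (percentile 30.9) differed by 0.04 between genotypes on quercetin, where the brightest Kit probe set differed by 0.25 and the second by 0.08. The part of these cells in the Kit values was not tested.

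The first comparison asked how these genes differed between diets in wild-type mice. None of the 10 probe sets passed the test (limma, adjusted p from 0.42 to 1), where 0.00442% of all probe sets passed, and 1 of 10, that of Tpsb2, had an unadjusted limma p below 0.05 (0.0364) against 10.9% of all. Of the 7 genes, 6 were lower on quercetin and 1, Mcpt1, was higher, with a median difference of -0.11 against -0.02 over all probe sets, of which 57% were lower. Tpsb2 differed by -0.21 ± 0.09 (log2, SE; 95% interval -0.40 to -0.02), Fcer1a by -0.14 ± 0.08, Kit by -0.11 ± 0.10 and Cpa3 by -0.11 ± 0.07. Groups that did not overlap, with quercetin lower, were seen for 2 of the 7 genes by their brightest probe sets, Tpsb2 and Fcer1a, and for 8.08% of all probe sets. Of the second probe sets, that of Hdc (-0.08) also had groups that did not overlap, and those of Tpsb2 and Kit overlapped. Without wild-type quercetin replicate 3 the median difference was -0.05. All 7 genes were lower without wild-type control replicate 2, and 5 were lower and 2 higher (Mcpt1 and Mcpt2) without wild-type control replicate 3 or wild-type quercetin replicate 3.

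In POR-null mice the comparison of diets asked the same question without the reductase, as far as its loss reached the ileum. On quercetin all 7 genes lay higher, by a median of 0.19 against 0.01 over all probe sets, and 54.5% of all probe sets were higher; with each array centred on its median, 6 were higher and Cpa3 was at 0. Mcpt1 differed by 0.46 ± 0.18 (95% interval 0.08 to 0.83, or 1.37-fold), Mcpt2 by 0.33 ± 0.17, Hdc by 0.26 ± 0.08 (0.09 to 0.43), Kit by 0.19 ± 0.10, Tpsb2 by 0.15 ± 0.09, Fcer1a by 0.14 ± 0.08 and Cpa3 by 0.02 ± 0.07. None passed limma's test (smallest adjusted p = 0.658, for Hdc), and no probe set of the array did (0%); unadjusted p-values were below 0.05 for Hdc (0.00526) and Mcpt1 (0.021), 2 of 10 member probe sets against 6.65% of all. Hdc alone had groups that did not overlap, which 7.45% of all probe sets showed in this direction. Without POR-null quercetin replicate 1 the difference was 0.255 for Mcpt1 and 0.15 for Mcpt2, and without replicate 3 it was 0.675 and 0.55. The median of the 7 genes was 0.13 without replicate 2, and also 0.13 when every probe set of a gene was averaged. Fcer1a was at 0.05 without POR-null control replicate 1.

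On the control diet the genotypes were compared, and all 7 genes were lower in POR-null mice. The median was -0.16 against -0.02 over all probe sets, of which 55.4% were lower, and without wild-type control replicate 3 Mcpt1 was higher by 0.04. Fcer1a differed by -0.22 ± 0.08 (95% interval -0.40 to -0.04), Hdc by -0.20 ± 0.08 (-0.37 to -0.03), Cpa3 by -0.20 ± 0.07 (-0.36 to -0.04), Mcpt2 by -0.16 ± 0.17, Tpsb2 by -0.15 ± 0.09, Mcpt1 by -0.10 ± 0.18 and Kit by -0.06 ± 0.10. Again no member passed (limma, smallest adjusted p = 0.391, for Cpa3), nor did any probe set of the array (0%). An unadjusted p below 0.05 was found for 3 of the 10 probe sets, those of Cpa3 (0.0161), Fcer1a (0.018) and Hdc (0.0249), against 10.1% of all. The same 3 of 7 genes had groups that did not overlap, against 8.71% of all probe sets in this direction. Fcer1a was at -0.125 without POR-null control replicate 1, and Mcpt2 at -0.04 without wild-type control replicate 3. The comparison of diets in POR-null mice uses the same POR-null control arrays, and the comparison of diets in wild type the same wild-type control arrays, so these counts are not independent of each other.

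On quercetin, 6 of the 7 genes were higher in POR-null mice and Cpa3 was lower (-0.07 ± 0.07). The median was 0.21 against 0.01 over all probe sets, of which 54.9% were higher. Mcpt1 differed by 0.28 ± 0.18, Kit by 0.25 ± 0.10 (95% interval 0.04 to 0.45), Mcpt2 by 0.24 ± 0.17, Tpsb2 by 0.21 ± 0.09 (0.02 to 0.40), Hdc by 0.13 ± 0.08 and Fcer1a by 0.07 ± 0.08. No member and no probe set passed (0%; limma, smallest adjusted p of a member 0.66), and 2 of 10 probe sets, those of Kit and Tpsb2, had an unadjusted p below 0.05 against 7.01% of all. Tpsb2 and Fcer1a, 2 of 7 genes, had groups that did not overlap, against 7.28% of all probe sets in this direction. Without POR-null quercetin replicate 1 the median of the 7 genes was 0.075, with Mcpt1 at 0.075 and Mcpt2 at 0.06, and without replicate 3 these 2 genes were at 0.495 and 0.46. Averaging every probe set of a gene gave a median of 0.115.

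**Figure D3:**
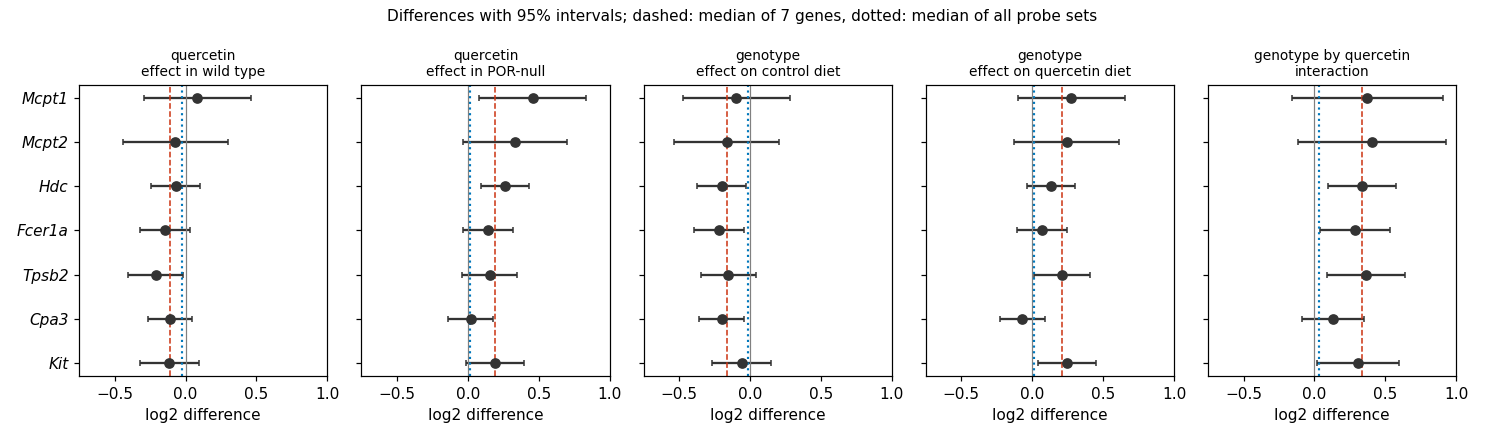
Log2 difference of each of the 7 genes (horizontal) with its 95% interval from the fit over all 12 arrays, in a panel for each of the 5 comparisons; the dashed line is the median of the 7 genes and the dotted line that of all probe sets. All 7 genes lie below 0 for the genotypes on control and above 0 for the diets in POR-null mice and for the interaction, with a median of 0.33 in the last.

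The interaction asked whether the difference between diets was the same in both genotypes. It was above 0 for all 7 genes and all 10 probe sets, with a median of 0.33 over the genes against 0.03 over all probe sets, of which 57% were above 0. The values were 0.41 ± 0.24 for Mcpt2, 0.37 ± 0.25 for Mcpt1, 0.36 ± 0.13 for Tpsb2 (95% interval 0.09 to 0.64), 0.33 ± 0.11 for Hdc (0.09 to 0.57), 0.31 ± 0.13 for Kit (0.02 to 0.60), 0.29 ± 0.12 for Fcer1a (0.04 to 0.54) and 0.13 ± 0.10 for Cpa3. None passed (limma, adjusted p from 0.413 to 0.794), and 0% of all probe sets did. Unadjusted p-values were below 0.05 for 4 of the 10 probe sets, those of Hdc (0.0104), Tpsb2 (0.0134), Fcer1a (0.0271) and Kit (0.0396), against 10.3% of all, and the second probe sets of Hdc, Tpsb2 and Kit were at 0.08, 0.09 and 0.13. The direction of all 7 genes was kept without any 1 of the 12 arrays, but the size for the chymases was not: without POR-null quercetin replicate 1 Mcpt1 was at 0.17 and Mcpt2 at 0.22, and without replicate 3 at 0.59 and 0.63. Averaging every probe set of a gene, in place of taking the brightest, gave a median of 0.23.

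The 7 genes did not vary as 1 unit within groups. Over the 21 pairs of genes, the correlation across 12 arrays ran from -0.10 to 0.82 with a median of 0.26, and after group means were subtracted from -0.50 to 0.79 with a median of -0.02. The highest pair in both was Mcpt1 with Mcpt2. With the mean of the other 6 genes, Hdc correlated at 0.75 and Mcpt2 at 0.70 over the arrays, and Cpa3 at 0.13. After group means were subtracted, these were 0.38, 0.68 and 0.12, and Tpsb2 (-0.30) and Fcer1a (-0.20) went against the rest.

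The level of dim probe sets in general moved with the mast cell genes. When all probe sets were split into 4 equal bands by their mean level, the median interaction was 0.06 in the dimmest band, 0.08 in the second, 0.02 in the third and -0.05 in the brightest, and 68.5%, 67%, 54.1% and 38.3% of them were above 0. Of the 7 genes, Fcer1a lay in the first band, Mcpt1 and Kit in the second, and the other 4 in the third. The median had the sign of the 7 genes in both dim bands for the diets in wild type (-0.04 and -0.04), the diets in POR-null mice (0.03 and 0.03), the genotypes on control (-0.04 and -0.04) and the genotypes on quercetin (0.02 and 0.03). It also had that sign in the third band, at -0.01, 0.01, -0.01 and 0.02 in the same order. In the brightest band it had the opposite sign, at 0.01, -0.02, 0.04 and -0.02. These medians were smaller than those of the 7 genes. An unadjusted interaction p below 0.05 with a value above 0 was found for 6.17%, 8.82%, 6.36% and 2.92% of the bands from dim to bright.

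**Figure D4:**
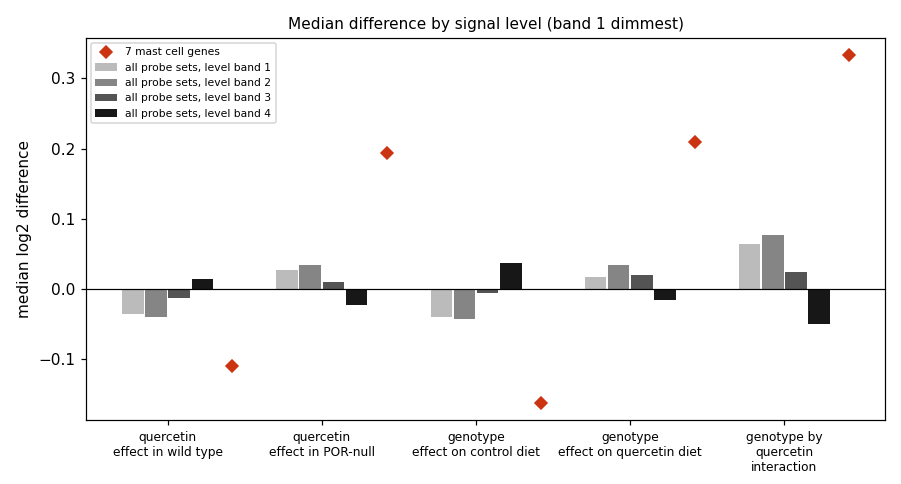
Median log2 difference (vertical) in each of the 5 comparisons for all probe sets, split into 4 bands of mean level from the dimmest (light bars) to the brightest (dark bars), and for the 7 mast cell genes (diamonds). The diamonds have the sign of every band but the brightest in every comparison. They lie farther from 0, at 0.33 against 0.06 and 0.08 in the dim bands for the interaction.

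Array by array, the mean centred level of the 7 genes (their score) followed that of the dim bands. It correlated over 12 arrays at 0.82 with the mean centred level of the dimmest band, 0.81 with the second, 0.21 with the third and -0.72 with the brightest, and both values of a point come from the same array. Without the 2 arrays farthest from the median of the second band, POR-null quercetin replicate 1 and POR-null control replicate 2, r was 0.71. The score itself was -0.11 ± 0.03 in POR-null control, -0.05 ± 0.08 in wild-type quercetin, 0.05 ± 0.06 in wild-type control and 0.11 ± 0.12 in POR-null quercetin (SD, n = 3). The part of the dim probe sets' shift in the values of the mast cell genes was not tested.

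**Figure D5:**
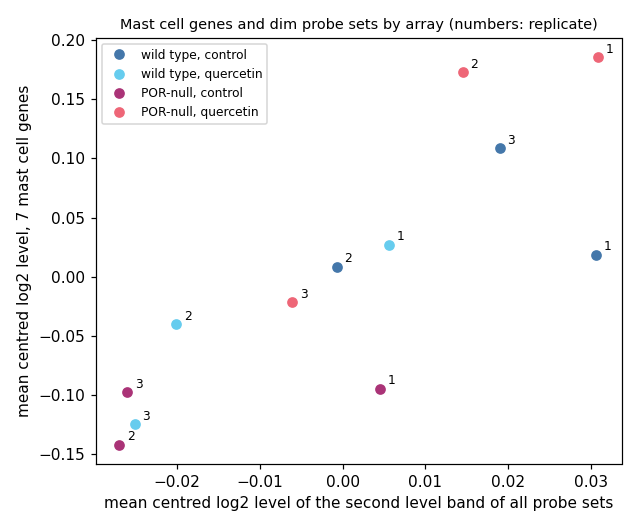
Mean centred log2 level of the 7 mast cell genes (vertical) against that of the second band of all probe sets (horizontal) for the 12 arrays, coloured by group and numbered by replicate. Arrays high on one axis are high on the other (r = 0.81), and POR-null quercetin replicate 1 is highest on both.

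The wider mast cell lists, which leave these 7 genes out, had no member past limma's test in either direction in any of the 5 comparisons. Among other granule genes, 6 of 8 listed were measured. Of these, 5 of 6 had an interaction above 0, against 57% of all probe sets, with a median of 0.18. Cma1, a chymase of connective tissue mast cells, was at 0.22 ± 0.15, the chymase gene Mcpt4 at 0.20 ± 0.12, and the granule protease gene Ctsg at 0.20 ± 0.12. Srgn, which encodes the granule proteoglycan serglycin and is also expressed by other blood cells, was at -0.38 ± 0.21. The 4 connective tissue markers measured (Cma1, Mcpt4, Tpsab1 and Ctsg), which are also among these granule genes, were all above 0, with a median of 0.20. Their probe sets lay in the dimmest and second bands, at percentiles 22.7 to 44.3. In those bands 68.5% and 67% of all probe sets were above 0, so this count says nothing about either mast cell subset.

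Partners of the IgE receptor and its signalling genes showed no common direction. Of 13 measured, 7 had an interaction above 0 and 6 below, with a median of 0.01. Ms4a2, the receptor's beta chain, was at 0.31 ± 0.15 and the adaptor Gab2 at 0.24 ± 0.09, whereas Fcer1g, the gamma chain that other receptors also use, was at -0.20 ± 0.14 and the adaptor Lat, which T cells also use, at -0.13 ± 0.12.

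Growth factors, their receptors and homing molecules held 18 measured genes, 13 above 0 in the interaction and 5 below, with a median of 0.10. Over all probe sets 57% were above 0. The brightest probe set of Kitl, the ligand of Kit, was at -0.72 ± 0.22, and its other 3 probe sets were at -0.37, 0.00 and 0.00. Between genotypes the brightest Kitl probe set differed by 0.56 on control and -0.16 on quercetin, and the other 3 by 0.37, -0.07 and 0.01 on control and -0.01, -0.07 and 0.02 on quercetin, so no direction is given for the gene. Tgfb1, the cytokine that induces Mcpt1 in cultured mucosal mast cells, was at -0.39 ± 0.12, Cxcr2, a chemokine receptor used in homing of mast cell progenitors to the intestine, at 0.37 ± 0.10, and the type 2 cytokine gene Il4 at 0.29 ± 0.11.

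Of 9 mast cell transcription factors, 8 had an interaction above 0 and 1 below, with a median of 0.19. Over all probe sets 57% were above 0, and 68.5% and 67% in the dimmest and second bands. Gata2 was at 0.37 ± 0.14 (0.17 in its other probe set), Gata1 at 0.30 ± 0.12, Meis2 at 0.22 ± 0.15, and Stat5b, which acts downstream of Kit, at 0.22 ± 0.10 (-0.12 in its other probe set). Their score correlated with that of the 7 genes at 0.75 over 12 arrays. This was 0.67 without POR-null control replicates 2 and 3, the arrays farthest from the median of the factors' score, and 0.55 after group means were subtracted. The dimmest and second bands of all probe sets correlated with the score of the 7 genes at 0.82 and 0.81. Gata1 (percentile 36.9), Meis2 (18.4), Mitf (23.1), Tal1 (21.2), Spi1 (37) and Stat5a (42) lay in those bands. Gata2 (62.5) and Stat5b (61.6) lay in the third and Runx1 (79.7) in the brightest. Against 57% of all probe sets above 0, 10 of 13 histamine and eicosanoid genes were above 0 and 3 below, with a median of 0.13. Their score was highest in wild-type control replicate 2 (0.18 against -0.09 to 0.09 in the other arrays). Ptgs2, the inducible cyclooxygenase, was at 0.37 ± 0.11 (0.20 in its other probe set). Of the histamine receptor genes, Hrh3 was at 0.22 ± 0.10, Hrh4 at 0.16 ± 0.10 and Hrh1 at -0.16 ± 0.12 (0.00 in its other probe set).

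Genes whose level over the 12 arrays was most like the score of the 7 genes were sought among 7306 genes brighter than the median probe set. That cut left out mast cell genes such as Cma1 (percentile 44.3), Tpsab1 (42.2), Ctsg (37.4) and Ms4a2 (17.3), so these could not be listed. The genes most like the score were Lhb (r = 0.93), Stmn4 (0.92), Irf5 (0.89), 4930470P17Rik (0.88), Oprl1 (0.88), Tbxas1 (0.88), Pvt1 (0.88) and Boc (0.87). Lhb encodes a pituitary hormone subunit, Stmn4 a neuronal tubulin regulator and Oprl1 an opioid-family receptor, while Tbxas1, thromboxane synthase, is made by platelets and macrophages. After group means were subtracted, the closest were Bcl2l11 (0.95), Lhb (0.94), Atf7 (0.93), Cdk5r2 (0.90) and Arhgap4 (0.89). All of these genes were picked as the highest of 7306 over 12 arrays. Such picking by itself gives high r, so the likeness is only a description.

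Markers of other cells in the scrapings were measured beside the mast cell genes. The 3 B cell genes measured had an interaction below 0 (Cd79b at -1.30, Cd79a at -1.01 and Ms4a1 at -0.92), opposite to the mast cell genes, and their score was -0.16 ± 0.26 in wild-type control, 0.39 ± 0.17 in wild-type quercetin, 0.15 ± 0.12 in POR-null control and -0.38 ± 0.10 in POR-null quercetin. By their brightest probe sets, the 9 genes of smooth muscle and stroma all lay higher in POR-null mice whichever the diet, by medians of 0.73 on control and 0.71 on quercetin. On control, other probe sets of Acta2 (-0.06), Des (-0.11), Myh11 (-0.08) and Col3a1 (-0.14) were lower in POR-null mice, and those of Col1a1 and Mylk were higher. The score of the brightest probe sets ranged from -0.73 to -0.15 in wild-type control, -0.67 to 0.32 in wild-type quercetin, -0.48 to 0.95 in POR-null control and 0.11 to 0.61 in POR-null quercetin. Basophil and eosinophil genes, close relatives of mast cells, had 5 of 5 measured above 0 in the interaction with a median of 0.16, Mcpt8, a basophil protease, being at 0.09 ± 0.11. Their probe sets lay in the dimmest and second bands, at percentiles 5.57 to 35.4. In those bands 68.5% and 67% of all probe sets were above 0, so this count is only a description. Of 9 genes of the type 2 and tuft cell axis, 9 were above 0, against 57% of all probe sets, with a median of 0.22. Among them Il25, Il13, Il5, Tslp, Dclk1 and Retnlb lay in the dimmest and second bands, at percentiles 11.7 to 47.5. The score of this axis was highest in wild-type control replicate 2 (0.46 against -0.17 to 0.06). The 4 proximal small intestine genes were likewise all above 0 in the interaction, with a median of 0.45. Of 4 ileum genes 3 were below 0, with a median of -0.38, as were 6 of 7 genes of T cells and intraepithelial lymphocytes (median -0.20). The part of these cells, and of where along the intestine tissue was taken, in the mast cell values was not tested.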

How the data were processed

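The authors deposited log2 expression levels, 1 per probe set and array, for 12 arrays of total RNA; MAS5 and RMA are both listed in the submitters' processing notes, which do not say what each was used for. Values ran from 2.66 to 14.04 and were used as deposited. The 64 array controls among 22690 probe sets were dropped. The platform annotation gave 1 symbol to 20380 of the 22626 tested, several to 691 and none to 1555. Of those with 1 symbol, 20351 were matched by gene ID to the RefSeq table of GRCm38.p6, used for names. A gene was represented by its probe set with the highest mean over 12 arrays, and other probe sets of the 7 genes are given as differences.

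Group means were modelled over the 12 arrays by limma 3.58.1 under R 4.3.3 (lmFit, eBayes, 8 residual and 5.59 prior degrees of freedom), with Benjamini-Hochberg adjustment over all 22626 probe sets and a threshold of 0.05. The median SE was 0.0886 between a pair of groups and 0.125 for the interaction. The number of arrays limits the precision. The fit was tested on simulated data. Nothing in the labels says more about the replicates than that each is a pool of 3 mice, so p-values measure the spread between pools.

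The members and lists were chosen with earlier results of these data known, so no p is given over the list alone. Of each pathway list, up to 4 genes with the smallest interaction p are named; genes most like the score were the 8 with the highest r, and the 5 highest after subtracting group means. Same-numbered arrays did not deviate together (correlations over all probe sets from -0.18 to 0.16, above 0.1 in 3 of 18 pairs), so replicate numbers were not taken as pairs. Alternatives were quantile normalization, median centring, leaving out dim probe sets, eBayes with trend and robust, only the arrays compared, the replicate block, averaging every probe set of a gene, and leaving out each array. Figures used Python 3.11.15, pandas 2.3.3 and matplotlib 3.10.9.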

Additional observations from a re-analysis of the deposited data

How the results depend on the processing

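None of the 10 probe sets of the 7 genes passed the threshold in any comparison under any alternative (smallest adjusted p 0.271), and of 930 recomputed differences 892 kept their sign, 20 reversed, 17 belong to the second Tpsb2 probe set for diets in wild type, whose reported difference of 0 has no direction (-0.065 to 0.065 leaving out an array), and 1 was 0 (Cpa3 for diets in POR-null mice after median centring). Reversals outside the leave-one-out fits concerned only second probe sets: Hdc between genotypes on control was 0.031 after quantile normalization and 0.01 after median centring, and Tpsb2 between genotypes on quercetin was -0.00042 and -0.0067. Leaving out 1 array at a time, the ranges of differences that reversed were, for diets in wild type, -0.045 to 0.22 for Mcpt1 and -0.20 to 0.052 for Mcpt2; for diets in POR-null mice, -0.0017 to 0.053 for Cpa3, -0.033 to 0.047 for the second Hdc and -0.088 to 0.057 for the second Kit probe set; for genotypes on control, -0.225 to 0.04 for Mcpt1, -0.032 to 0.023 for the second Hdc and -0.14 to 0.028 for the second Kit; and for genotypes on quercetin, -0.02 to 0.055 for the second Tpsb2 and -0.028 to 0.14 for the second Kit. The median of the 7 genes ran over these fits from -0.14 to -0.05 (diets, wild type), 0.13 to 0.26 (diets, POR-null), -0.21 to -0.15 (genotypes, control), 0.075 to 0.24 (genotypes, quercetin) and 0.29 to 0.38 (interaction); averaging every probe set of a gene, it was 0.13 for diets in POR-null mice, 0.115 for genotypes on quercetin and 0.23 for the interaction. The count of all probe sets passing, 1 for diets in wild type and 0 otherwise, became for diets in wild type 7 without the dimmest 25% of probe sets, 7 with trend and robust, 2 with only the arrays compared, 0 over gene means (1375 at an unadjusted limma p below 0.05) and 1 to 59 leaving out an array (59 without wild-type control replicate 1); for genotypes on control 1 with trend and robust and 0 to 15 leaving out an array (15 without the same array); for genotypes on quercetin 5 with trend and robust, 2 with only the arrays compared and 0 to 1; and for the interaction 2 with trend and robust and 0 to 9 (9 without the same array). The cause was not tested. With the replicate block, a fit for which same-numbered arrays share only a number, the counts were 5 for diets in wild type, 2 for genotypes on quercetin and 3 for the interaction. The filters on dim probe sets kept 6 and 4 of the 7 genes.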
